A study of Mus musculus with 9 samples.

Results

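The disease-associated microglia genes described here are 10 genes chosen by name, Apoe, Lpl, Cst7, Spp1, Gpnmb, Cd9, Lgals3, Trem2, Tyrobp and Itgax, of the 40993 genes in the deposited expression table. All 10 were found and measured in each of 9 RNA-seq libraries from BV2, an immortalized mouse microglial cell line. The 3 control libraries came from non-treated cells, and 3 libraries each came from cells exposed for 12 h to 10 or 100 µg/ml of MNPs@SiO2(RITC), a magnetic cobalt ferrite nanoparticle in a silica shell carrying the dye rhodamine B isothiocyanate. The labels write these doses as 0.01 and 0.1 µg/µl. BV2 is a single line without the brain surroundings of microglia, the controls received no particles of another kind, and nothing states that the 3 libraries of a group came from separate cultures, so the p-values below measure the spread between libraries, which may be technical.

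Microglia in ageing, demyelinated or amyloid-laden brain tissue are known to pass into a state called disease-associated microglia, in which lipid, lysosome and phagocytosis genes are high and genes of resting microglia are low. TREM2 is a surface receptor for lipids and lipoproteins, and it signals through the adaptor TYROBP, also called DAP12. Full entry into this state is known to require that receptor, and apolipoprotein E, lipoprotein lipase, cystatin F, osteopontin, GPNMB, CD9, galectin-3 and CD11c (the products of Apoe, Lpl, Cst7, Spp1, Gpnmb, Cd9, Lgals3 and Itgax) are commonly used to recognize it.

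No gene of the 10 passed the test in any of the 3 comparisons (limma on log2(FPKM + 1), adjusted p under 0.05 over 11161 genes), and the genes did not shift together. At 100 µg/ml, Lgals3 was 31.5% and Spp1 13.8% above the control mean, with all 3 treated libraries above all 3 controls. Lpl was 17.1% and Cst7 19.3% below it, with all treated libraries below all controls, and Apoe was 23.8% below it with overlapping libraries. Such a lack of overlap was common, at 12.5% (higher) and 11.4% (lower) of all genes tested. Gpnmb, Cd9, Trem2, Tyrobp and Itgax had intervals that included 0. At 10 µg/ml, Cst7 alone of the 10 had an interval that excluded 0.

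FPKM counts fragments relative to transcript length and to the mapped total, so levels can be set side by side between genes. The libraries' FPKM summed to between 473547 and 522812, and control replicates 1 and 2 and 100 µg/ml replicate 1 had higher sums than the other 6 libraries. From the steps between low values, depth was estimated at 12150000 to 15200000 fragments per library. This figure is approximate, since 69.5% to 77.5% of low values fell within 0.25 of a whole number of fragments. At a depth fixed in advance 50% would do so by chance. The depth was chosen to bring these same values near whole numbers, so the share by chance is higher. Fragments per gene were estimated with the length of its longest annotated transcript. At the estimated depth Cst7 and Itgax rested on about 86.0 to 131.5 and 98.8 to 125.5 fragments per library. Counting alone then gives an error of 8.7% to 10.8% and 8.9% to 10.1%. The counting error of the other 8 genes was at most 2.9%.

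The label of the cells was checked against marker genes. Of 11 microglia and macrophage markers, 9 were above the filter of a mean of 1 FPKM, and the summed FPKM of all 11 was 1094 to 1165 in control libraries, 1077 to 1135 at 10 µg/ml and 978.8 to 1044 at 100 µg/ml. P2ry12 and Sall1, which mark microglia of the brain, were under 1 FPKM in every library, and Tmem119 was between 1.87 and 2.65 FPKM. Aif1, which encodes the microglial protein IBA1, was at 6.54 FPKM on average in control cells, 4.97 at 10 µg/ml and 3.87 at 100 µg/ml. It did not pass the test at either dose. In the paper, IBA1 staining of BV2 cells increased with dose, the opposite direction, but staining measures protein and not RNA. The marker sum was lower in all 100 µg/ml libraries than in all others, and its part in the differences below was not tested. All 9 markers tested had a difference below 0 at 100 µg/ml against control, and 1 of them passed (Adgre1, described with the lists below). The cells are of 1 line, and bulk RNA cannot tell a change in every cell from a change in part of them. Markers of neurons, astrocytes and lymphocytes were under 1 FPKM in every library, with Rbfox3, Snap25, Syt1, Aqp4, Cd3e, Cd3d and Cd79a listed at 0 throughout. Summed oligodendrocyte markers were between 0.817 and 1.444 FPKM, with Mog listed at 0 in every library.

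The proximal promoters of 5 of the genes are shown because they precede annotated starts of genes compared below. Of these, 4 belong to genes with an unadjusted p under 0.05 at 100 µg/ml and 1 to the receptor. FPKM pools all transcripts of a gene, and the start shown for Lgals3 lies inside the span given for that gene below. Spp1 and Apoe have further annotated starts, whose bases are not shown. Each line gives the 150 bases before the annotated start (RefSeq, GRCm38.p6), written 5′ to 3′ on the gene's strand. Capitals mark GAGGAA or its reverse complement, a form of the site of the ETS factor PU.1. The shorter core GGAA, common to ETS factors, was not searched by itself and is not marked.
Lgals3, chr14:47373710-47373859, plus strand: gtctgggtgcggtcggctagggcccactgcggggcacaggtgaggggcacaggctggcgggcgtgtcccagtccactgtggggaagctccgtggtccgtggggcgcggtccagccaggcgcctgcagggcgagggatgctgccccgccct
Spp1, chr5:104434961-104435110, plus strand: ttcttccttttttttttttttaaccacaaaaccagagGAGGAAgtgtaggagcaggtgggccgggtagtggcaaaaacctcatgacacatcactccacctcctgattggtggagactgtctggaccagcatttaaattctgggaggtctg
Apoe, chr7:19699189-19699338, minus strand: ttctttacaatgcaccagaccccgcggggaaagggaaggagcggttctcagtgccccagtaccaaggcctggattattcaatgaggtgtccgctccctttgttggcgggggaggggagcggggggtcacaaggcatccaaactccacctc
Cst7, chr2:150570265-150570414, plus strand: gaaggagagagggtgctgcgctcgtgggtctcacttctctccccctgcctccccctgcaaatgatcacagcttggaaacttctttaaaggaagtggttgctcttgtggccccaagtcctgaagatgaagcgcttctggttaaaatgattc
Trem2, chr17:48346251-48346400, plus strand: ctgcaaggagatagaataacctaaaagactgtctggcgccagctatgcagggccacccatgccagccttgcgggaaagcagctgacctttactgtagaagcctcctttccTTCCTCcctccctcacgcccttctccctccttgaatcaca
For the 8 genes found in the promoter table (not Lpl or Tyrobp), windows ran from 250 bases before to 50 after the start. Both strands were searched for 3 exact sequences: the E-box CACGTG, the AP-1 motif TGAGTCA and GAGGAA. Spp1 held GAGGAA with its first base 113 bases before the start shown, and not in its other annotated window. Trem2 held it 40 bases before the start on the other strand. Apoe held it 250 bases before the start shown, outside the bases printed, and at 2 further places in its 3 annotated windows. Itgax held the AP-1 motif 56 bases before its start, and Gpnmb held it within the first bases of the transcript. Cst7, Cd9 and Lgals3 held none of these 3 exact sequences, and no window held the E-box. The shorter core GGAA does occur in the Cst7 and Lgals3 lines above. Of all 32851 promoter windows, 7.2% held the E-box, 5.2% the AP-1 motif and 28.3% GAGGAA, so these matches are descriptions only.

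The 10 genes spanned nearly the whole range of expression in BV2 cells. Spp1 had the second highest mean FPKM of all genes (5838) and Gpnmb ranked 9 (1746). Lpl ranked 58 (683.8), Lgals3 95 (520.2), Tyrobp 260 (246.5), Apoe 288 (231.7), Trem2 677 (126.2) and Cd9 1152 (84.17). Cst7 was far lower (8.199, above 28.96% of the genes tested), and Itgax lower still (2.082, above 7.455%). Over the 9 libraries, the ranges of Lpl (580.7 to 761) and Lgals3 (446.5 to 736.8) overlapped, as did those of Tyrobp (200.3 to 303.6) and Apoe (171.7 to 282.5), so neither pair had a fixed order, while no other neighbours in the ranking overlapped. Spp1 made up 59.67% to 64.09% of the summed FPKM of the 10 genes.

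**Figure D1:**
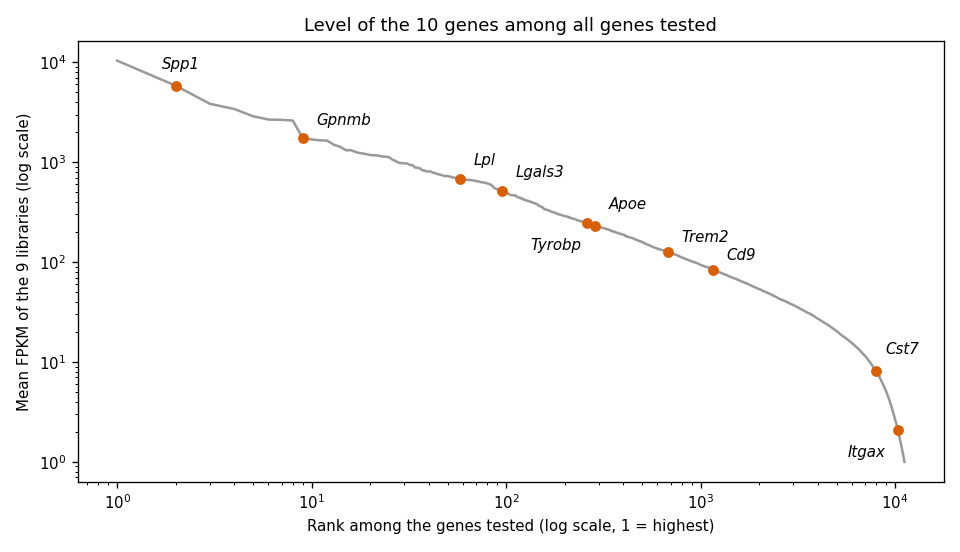
Mean FPKM of the 9 libraries (log scale) against rank (log scale) for the 11161 genes tested (grey line), with the 10 disease-associated microglia genes as points. Spp1 is at rank 2 and Gpnmb at rank 9, while Cst7 (8.199 FPKM) and Itgax (2.082 FPKM) lie at the lower end.

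The receptor and its adaptor come first among the members. Trem2 (chr17:48346401-48354147, plus strand) was at 139.4, 142.2 and 119 FPKM in control replicates 1 to 3, at 132.5, 127.9 and 117.3 at 10 µg/ml and at 134.4, 110.3 and 112.7 at 100 µg/ml. The groups overlapped, and the difference at 100 µg/ml was -0.17 on the log2(FPKM + 1) scale (SE 0.096, 95% interval -0.38 to 0.05, limma adjusted p = 0.396). Tyrobp (chr7:30413788-30417577, plus strand), which carries the activation motif that TREM2 itself lacks, was at 303.6, 280.4 and 214.1 in control libraries, 233.3, 220.6 and 272 at 10 µg/ml and 279.6, 200.3 and 214.3 at 100 µg/ml. Control replicates 1 and 2, 10 µg/ml replicate 3 and 100 µg/ml replicate 1 were at 272 or above, and the other libraries lay between 200.3 and 233.3. The difference at 100 µg/ml was -0.20 (SE 0.159, 95% interval -0.56 to 0.16, limma adjusted p = 0.539), the widest interval of the 10 genes. It ranged from -0.10 (without control replicate 1) to -0.35 (without control replicate 3) when 1 library was left out. The ratio of Trem2 to Tyrobp FPKM was 0.4314 to 0.5799 over all libraries, with the groups overlapping.

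Apolipoprotein E and lipoprotein lipase handle lipid outside the cell, the first as a carrier that TREM2 can bind and the second as an enzyme that frees fatty acids from triglycerides. Apoe (chr7:19696109-19699166, minus strand) was at 282.5, 257.3 and 230.5 FPKM in control libraries, 230.4, 237.7 and 259.1 at 10 µg/ml and 236.9, 178.8 and 171.7 at 100 µg/ml. Replicates 2 and 3 at 100 µg/ml were below all other libraries, while replicate 1 lay among the controls. The difference at 100 µg/ml was -0.40 (SE 0.124, unadjusted p = 0.0109 and adjusted p = 0.131 by limma), and at 10 µg/ml it was -0.08 (95% interval -0.36 to 0.20). Without 100 µg/ml replicate 1, the difference was -0.54 and passed the test (limma adjusted p = 0.0179), as it did after a correction for GC content and transcript length (-0.45, adjusted p = 0.00908). Of all genes, 530 passed without that replicate and 819 with the correction, against 236 as reported. The correction was chosen after seeing the data. Lpl (chr8:68880491-68907448, plus strand) was at 733.6, 761 and 715 FPKM in control libraries, 673.7, 754.6 and 685.2 at 10 µg/ml and 596.5, 653.9 and 580.7 at 100 µg/ml. All 3 libraries at 100 µg/ml were below the other 6. The difference against control was -0.27 (SE 0.066, unadjusted p = 0.0028, adjusted p = 0.0755 by limma), the smallest adjusted p among the 10 genes, and it passed with the GC and length correction (-0.26, adjusted p = 0.0343). After quantile normalization it was -0.17 (adjusted p = 0.419).

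Osteopontin and galectin-3 are secreted proteins, the first a ligand of integrins and CD44 and the second a lectin that also gathers on damaged lysosomes. Spp1 (chr5:104435118-104441050, plus strand) was at 5632, 5614 and 5379 FPKM in control libraries, 5584, 5463 and 5949 at 10 µg/ml and 6907, 5848 and 6167 at 100 µg/ml. The 100 µg/ml libraries lay above all controls but overlapped with those at 10 µg/ml. The difference against control was 0.18 (SE 0.076, unadjusted p = 0.0403, adjusted p = 0.235 by limma), and it passed with the GC and length correction (0.22, adjusted p = 0.0163). It was 0.12 without 100 µg/ml replicate 1 (adjusted p = 0.284) and 0.40 after quantile normalization (adjusted p = 0.346). Lgals3 (chr14:47367751-47386160, plus strand) was at 490.1, 475.9 and 446.5 FPKM in control libraries, 459.3, 449.3 and 502.5 at 10 µg/ml and 736.8, 564.5 and 556.7 at 100 µg/ml. Every library at 100 µg/ml was above the other 6, and replicate 1 was far above replicates 2 and 3. The difference against control was 0.38 (SE 0.106, 95% interval 0.14 to 0.63, unadjusted p = 0.00586, adjusted p = 0.102 by limma). Without 100 µg/ml replicate 1 it was 0.25 (adjusted p = 0.0588), and it passed the test after quantile normalization (0.46, adjusted p = 0.00589) and with the GC and length correction (0.38, adjusted p = 0.00613). Of all genes, 291 passed after quantile normalization and 819 with the correction, against 236 as reported.

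Cystatin F, the product of Cst7, is an inhibitor of lysosomal cysteine proteases that include cathepsin C. Cst7 (chr2:150570415-150578944, plus strand) was at 9.069, 9.88 and 9.208 FPKM in control libraries, 7.421, 7.411 and 8.074 at 10 µg/ml and 7.479, 7.118 and 8.132 at 100 µg/ml. The libraries of both doses lay below all controls and overlapped each other. The SDs were 0.4336 (control), 0.3801 (10 µg/ml) and 0.5139 FPKM (100 µg/ml), on means of 9.386, 7.635 and 7.576. These are smaller than the counting error of 8.7% to 10.8% per library estimated above. The SE, the p-values and the lack of overlap may therefore understate the real spread. The difference was -0.27 at 10 µg/ml (SE 0.071, unadjusted p = 0.0046, adjusted p = 1 by limma) and -0.28 at 100 µg/ml (unadjusted p = 0.00366, adjusted p = 0.0848), and these comparisons share the 3 control libraries. Between the doses it was -0.01 (95% interval -0.17 to 0.15). The relation of these levels to the cysteine proteases is given with the lists below.

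The 3 remaining genes encode membrane proteins. Gpnmb (chr6:49036518-49058182, plus strand), a glycoprotein of lysosomes and the cell surface, was at 1752, 1729 and 1654 FPKM in control libraries, 1769, 1756 and 1736 at 10 µg/ml and 1811, 1780 and 1726 at 100 µg/ml. Its groups overlapped, and at 0.05 (95% interval -0.06 to 0.17) its difference at 100 µg/ml had the narrowest interval of the 10 genes. Cd9 (chr6:125460266-125494791, minus strand), a tetraspanin, was at 94.67, 85.73 and 77.19 in control libraries, 75.04, 77.72 and 88.23 at 10 µg/ml and 98.11, 77.6 and 83.27 at 100 µg/ml. Its difference at 100 µg/ml was 0.01 (95% interval -0.24 to 0.25), and its sign turned (-0.09) without 100 µg/ml replicate 1. An antisense gene that overlaps Cd9 did not exceed 1.19 FPKM. Itgax (chr7:128129547-128150656, plus strand), the CD11c chain of an integrin, was at 2.039, 2.045 and 1.933 in control libraries, 2.24, 1.965 and 2.2 at 10 µg/ml and 2.04, 1.994 and 2.281 at 100 µg/ml. Its difference at 100 µg/ml was 0.05 (95% interval -0.17 to 0.26), and like Cst7 it rested on few fragments.

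**Figure D2:**
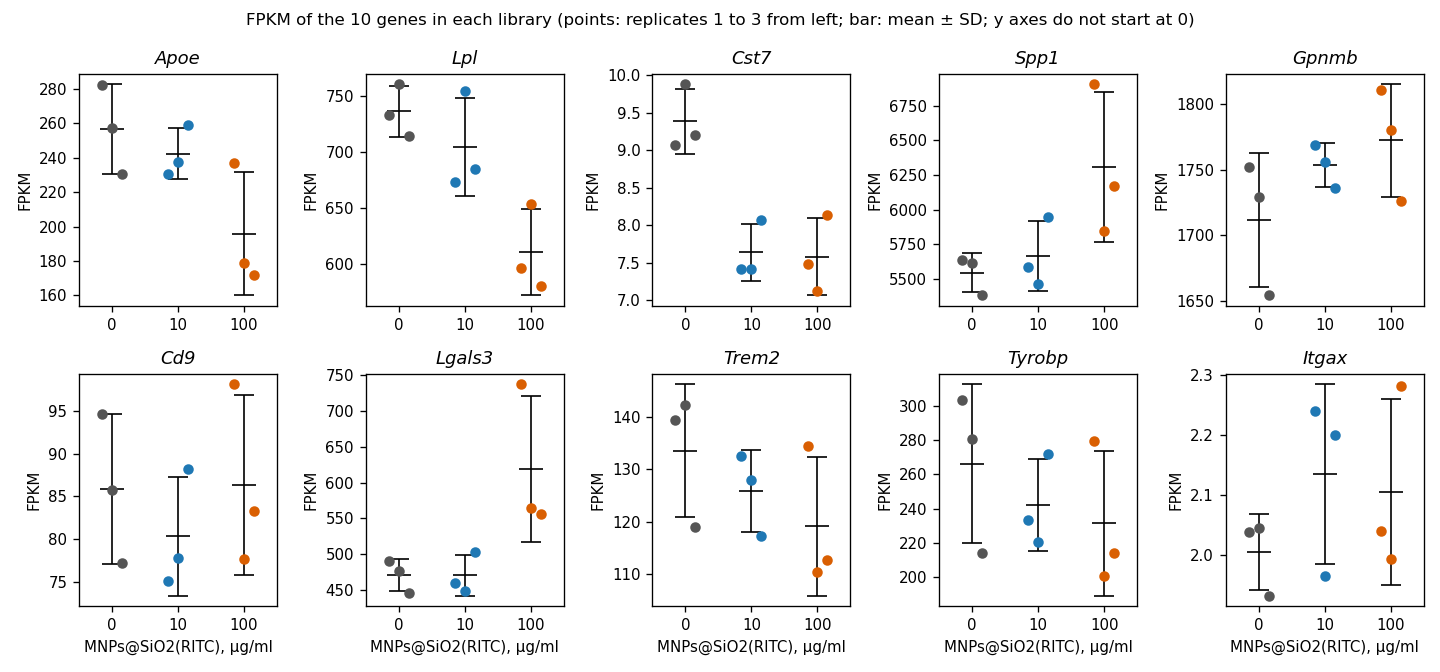
FPKM of each of the 10 genes in the 3 control libraries and the 3 libraries at 10 and 100 µg/ml, with replicates 1 to 3 from left to right, the group mean and its SD, on axes that do not start at 0. All 100 µg/ml libraries lie above the controls for Lgals3 and Spp1 and below them for Lpl and Cst7, and Cst7 is at the same level at both doses. Of all genes tested, 12.5% lie above and 11.4% below the controls in this way.

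In counts, 0 of the 10 genes passed the limma test at 100 µg/ml against control, where 2.11% of all 11161 genes did (236, with 0.708% higher and 1.41% lower). An unadjusted p under 0.05 was found for 5 of the 10 (Apoe, Lpl, Cst7, Spp1 and Lgals3), against 19.4% of all genes. The libraries did not overlap for 2 higher genes (12.5% of all genes) and 2 lower genes (11.4% of all genes). The median log2 difference of the 10 was -0.08, beside -0.002 for all genes tested, with 5 genes above and 5 below 0. At 10 µg/ml against control, 0 of the 10 and 0% of all genes passed, and 1 of the 10 (Cst7) had an unadjusted p under 0.05 against 3.28% of all genes. Cst7 was also the single gene of the 10 without overlap, on the lower side (4.61% of all genes), and none was on the higher side (6.14%).

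At 100 against 10 µg/ml, 0 of the 10 passed beside 0.851% of all genes, and 3 of the 10 had an unadjusted p under 0.05 (14.3% of all genes). These were Lgals3 (0.39, unadjusted p = 0.00569, adjusted p = 0.153 by limma), Lpl (-0.21, unadjusted p = 0.0127, adjusted p = 0.211) and Apoe (-0.32, unadjusted p = 0.0306, adjusted p = 0.289). Lgals3 was without overlap on the higher side (9.37% of all genes) and Lpl on the lower side (9.99%). Apoe passed without 100 µg/ml replicate 1 (-0.46, adjusted p = 0.0457), and Lgals3 passed after quantile normalization (0.39, adjusted p = 0.0138). Of all genes, 189 passed without that replicate and 103 after quantile normalization, against 95 as reported.

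**Figure D3:**
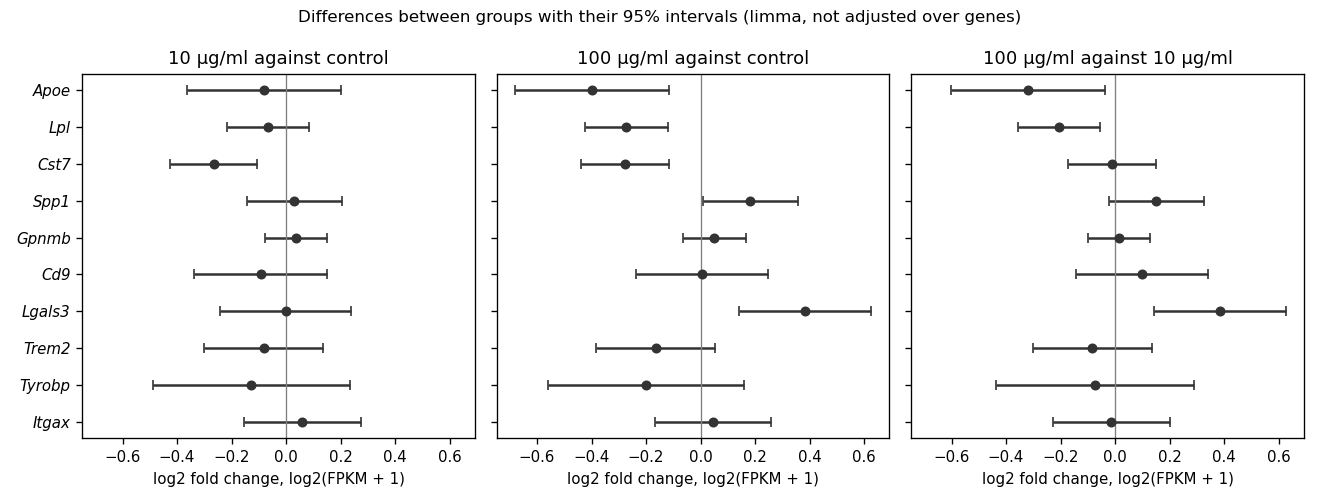
Differences in log2(FPKM + 1) for the 10 genes in the 3 comparisons, as points with 95% intervals from limma that are not adjusted over genes. At 100 µg/ml against control the intervals of Apoe, Lpl and Cst7 lie below 0 and those of Spp1 and Lgals3 above it, and at 10 µg/ml the interval of Cst7 alone excludes 0.

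Ratios of members were also taken within each library, which cancels that library's scale. Lgals3 FPKM was 0.6245 to 0.668 times that of Lpl in control libraries, 0.5955 to 0.7334 times at 10 µg/ml and 0.8632 to 1.235 times at 100 µg/ml, so the highest-dose libraries lay above all others. The ratio of Cst7 to Lgals3 was 0.0185 to 0.02076 in control libraries, 0.01607 to 0.01649 at 10 µg/ml and 0.01015 to 0.01461 at 100 µg/ml, with no overlap between any of the groups. The second ratio carries the counting error of Cst7 (8.7% to 10.8% per library), so its lack of overlap may understate the real spread. These ratios were chosen with the levels above known and are given as descriptions.

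**Figure D4:**
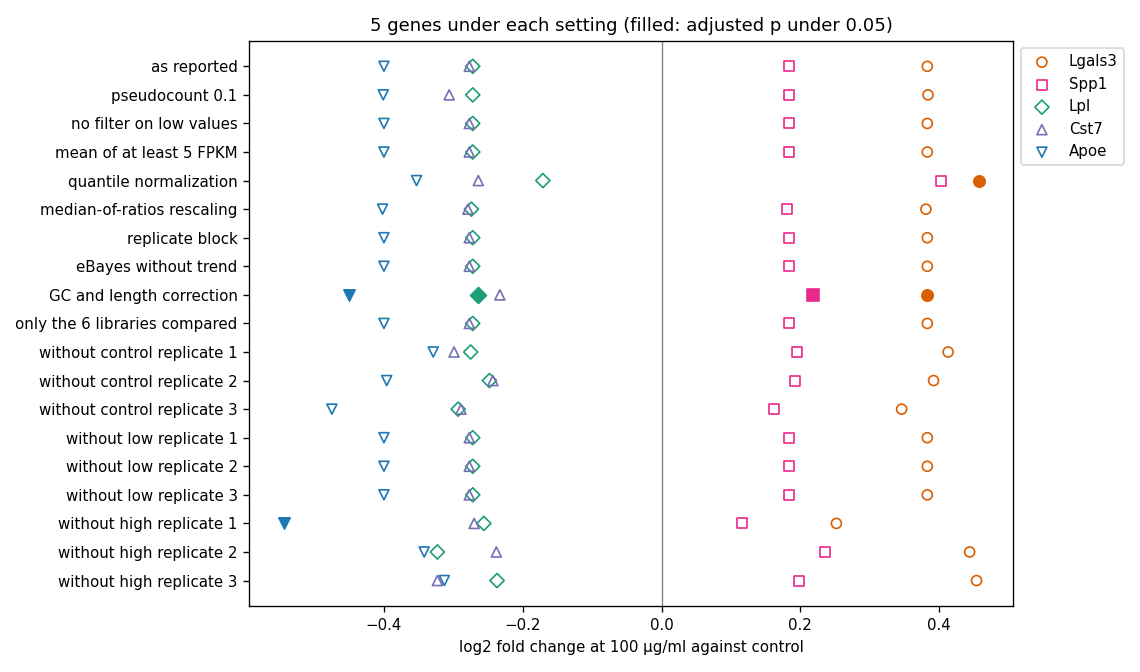
Log2 differences at 100 µg/ml against control for the 5 genes with an unadjusted p under 0.05, as reported and under 18 alternative settings (filled symbols, adjusted p under 0.05). Each of the 5 kept its sign in all settings shown. Under the filters, the replicate block, eBayes without trend and only the libraries compared, the difference equals the reported one by design. The same holds when a library of the group not compared is left out, so the sign is informative only in the other settings. The GC and length correction is the setting in which 4 of the 5 passed.

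Further genes of the disease-associated state were taken as a list of 24, of which 21 were tested and 0 passed at 100 µg/ml against control by limma (8 with an unadjusted p under 0.05, median log2 difference -0.02). Beside the counts of this and every later list stand the shares of all genes. At 100 µg/ml against control, 2.11% passed by limma and 19.4% had an unadjusted p under 0.05. Against 10 µg/ml these shares were 0.851% and 14.3%. The lists are small, and none was tested as a set. Axl, Serpine2 and Ch25h were at or near 0 FPKM. The 3 most abundant were Fth1, the ferritin heavy chain (10430 FPKM on average in control and 10370 at 100 µg/ml, log2 difference -0.02), Ctsd, the lysosomal protease cathepsin D (0.09, SE 0.079), and Lyz2, lysozyme (-0.36, SE 0.079, adjusted p = 0.0601). Between 0 and 4 genes of the list passed over the alternative settings, with 4 under the GC and length correction and 3 both after quantile normalization and without 100 µg/ml replicate 1.

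Genes of resting microglia, which are low in the disease-associated state, were tested for 10 of 19, since Cx3cr1, P2ry12, P2ry13, Gpr34, Olfml3, Fcrls, Sall1, Siglech and Sparc were under the filter. At 100 µg/ml, 2 passed as lower and 1 as higher, and the median difference was -0.17. Of the 10, 9 had a difference below 0 and 6 an unadjusted p under 0.05 by limma. Selplg, a selectin ligand, was at 20.98, 21.64 and 20.2 FPKM in control libraries and at 15.74, 16.15 and 13.99 at 100 µg/ml, and fell by 0.43 on the log2 scale (limma adjusted p = 0.0161). Txnip, an inhibitor of thioredoxin that responds to glucose, rose by 0.72 (SE 0.063, limma adjusted p = 0.00224), opposite to the 2 others. Txnip passed under all 18 alternatives. The call of Selplg was lost without control replicate 1 or 2 (adjusted p up to 0.088) or with only the 6 libraries compared. Against 10 µg/ml, Selplg (-0.37) and Txnip (0.52) passed by limma (adjusted p = 0.0459 and 0.0133), under 6 and 14 of 18 alternatives.

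Around the receptor, 1 of 20 genes of TREM2 and DAP12 signalling passed at 100 µg/ml, beside a median of -0.08. Ptpn6, the phosphatase SHP-1 that restrains such signals, was at 135.7, 134.6 and 127.3 FPKM in control libraries, 131.4, 132.3 and 119.1 at 10 µg/ml and 96.12, 99.47 and 95.35 at 100 µg/ml. It fell by 0.45 on the log2 scale against control (limma adjusted p = 0.00962) and by 0.39 against 10 µg/ml (adjusted p = 0.0223), and the first call was lost without control replicate 2 alone among 18 alternatives (-0.426 to -0.475 over all of them). The second call held under 10 of 18 alternatives, with an adjusted p of up to 0.126 when 1 library was left out. Inpp5d, the phosphatase SHIP1, was the most abundant of the list (146.2 FPKM in control cells) and its difference was -0.35 (SE 0.156, adjusted p = 0.26).

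Beside Apoe, 2 of 11 genes of apolipoprotein E receptors and lipid efflux passed. Abca1, which loads cholesterol onto apolipoprotein E, was at 39.67, 41.31 and 42.41 FPKM in control libraries and at 20.27, 28.46 and 29.82 at 100 µg/ml, and fell by 0.65 (limma adjusted p = 0.0345). Abcg1, a second sterol exporter, was at 36.96, 38.64 and 38.39 in control libraries and at 28.13, 30.5 and 27.8 at 100 µg/ml, and fell by 0.39 (limma adjusted p = 0.0106). Both were lower in all 3 libraries at 100 µg/ml than in the controls. Abca1 passed under 8 of 18 alternatives, with an adjusted p of up to 0.132 when 1 library was left out (any control, any 10 µg/ml library or 100 µg/ml replicate 2), and Abcg1 under 16, losing its call without control replicate 2 (0.064). The difference of Lrp1, a receptor for apolipoprotein E, was -0.08 (SE 0.150).

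Beside Lpl, 1 of 9 genes of fatty acid handling passed. Lipa, the acid lipase of lysosomes, was at 130.2, 127.6 and 134.5 FPKM in control libraries and 98.63, 110.2 and 106.4 at 100 µg/ml, and fell by 0.31 (limma adjusted p = 0.0215), a call that held under 11 of 18 alternatives and was lost without any 1 control or 100 µg/ml replicate 3 (adjusted p up to 0.0893). Plin2, the coat protein of lipid droplets, had a difference of 0.33 with all libraries above the controls (limma adjusted p = 0.0606), and Fabp4, a fatty acid binding protein, one of -0.35 (adjusted p = 0.122). No gene passed of 6 osteopontin receptors (3 with an unadjusted p under 0.05), where Cd44 had a difference of 0.01 and Itgb1 one of 0.00 (SE 0.045).

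Of the partners of CD11c, Itgb2, the beta chain it pairs with, was at 47.25, 50.88 and 47.36 FPKM in control libraries and 61.19, 59.07 and 61.45 at 100 µg/ml. It rose by 0.32 (limma adjusted p = 0.0402), and the call held under 7 of 18 alternatives, with an adjusted p of up to 0.156 when 1 library was left out. Itgam, the alpha chain of another integrin with the same partner, had a difference of -0.20 (SE 0.112). No gene passed of 10 tetraspanins (3 with an unadjusted p under 0.05) or of 3 galectins (0 with an unadjusted p under 0.05), where Lgals1 had a difference of -0.25 (SE 0.123) beside the 0.38 of Lgals3.

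Beside Cst7, 3 of 7 genes in a list of cystatins and lysosomal proteases passed at 100 µg/ml, all lower. Ctsc, cathepsin C, was at 205.3, 201.7 and 199.5 FPKM in control libraries, 189.1, 182.7 and 190.1 at 10 µg/ml and 142.5, 132.9 and 142.2 at 100 µg/ml. It fell by 0.54 (SE 0.047, limma adjusted p = 0.00224). Ctsh, cathepsin H, was at 20.04, 24.5 and 23.66 in control libraries and 13.94, 13.94 and 12.81 at 100 µg/ml, and fell by 0.70 (limma adjusted p = 0.00765). Lgmn, the asparaginyl protease legumain, fell by 0.32 (limma adjusted p = 0.0191). All 3 were below every library of the other groups and also passed against 10 µg/ml, there under 16 of 18 alternatives for Ctsc, 11 for Ctsh and 5 for Lgmn. Against control, Ctsc and Ctsh passed under all 18 alternatives and Lgmn under 11, with an adjusted p of up to 0.102 when 1 library was left out. Ctsk, cathepsin K and the most abundant of the list, had a difference of 0.20 in the other direction (3267 FPKM on average in control cells and 3761 at 100 µg/ml, adjusted p = 0.255). The cysteine cathepsins Ctsb, Ctsl and Ctsz, which are in the list of further disease-associated genes, had differences of 0.01 (SE 0.048), -0.03 (SE 0.078) and 0.00 (SE 0.084) and did not pass.

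No gene passed of 7 MiT/TFE and related transcription factors, which act on lysosome and microglia genes (1 with an unadjusted p under 0.05, Bhlhe40, with a difference of 0.32 and an adjusted p of 0.0621). Spi1, which encodes PU.1, had a difference of -0.03 (SE 0.057), and Tfe3 one of -0.09 (SE 0.101). Of the 9 microglia and macrophage markers tested, Adgre1, which encodes the macrophage antigen F4/80, passed. It was at 199.3, 207.8 and 200.4 FPKM in control libraries, 192.1, 193 and 189.3 at 10 µg/ml and 116.8, 132.8 and 131.5 at 100 µg/ml, and fell by 0.67 (limma adjusted p = 0.00224), under all 18 alternatives too. At 10 µg/ml no gene of any list passed.

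**Figure D5:**
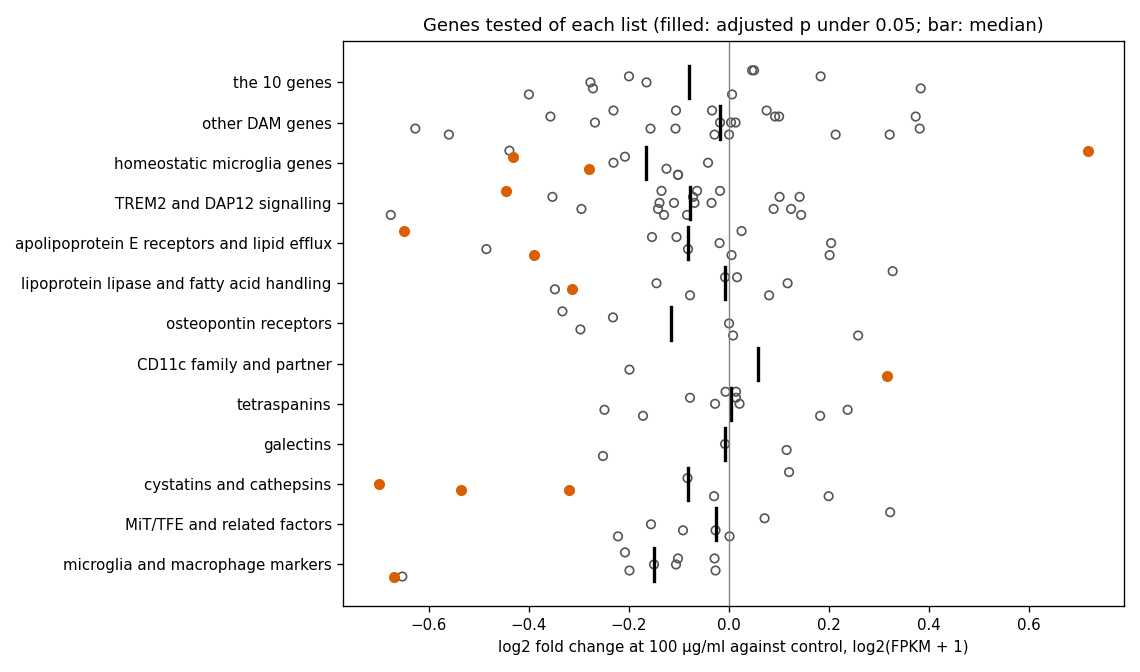
Log2 differences at 100 µg/ml against control for the genes tested of each list (circles, filled where the adjusted p was under 0.05) with the median of the list (bar). None of the 10 genes or of the other disease-associated genes is filled. Filled points lie on both sides of 0 among the resting microglia genes, of which 9 of 10 are below 0, and above 0 in the CD11c list. They lie below 0 among the cystatins and cathepsins, the lipid efflux, fatty acid handling and TREM2 signalling genes. The single filled macrophage marker is also below 0.

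Of the 10 genes, Apoe had the largest range of group means (0.40 on the log2 scale). The 5 tested genes most like it over the 9 libraries, by the root mean square difference of log2(FPKM + 1) after each gene's mean was subtracted, were Mrps23 (0.0484), Gadd45b (0.0548), Coa3 (0.0555), 1810037I17Rik (0.0678) and Gm10288 (0.0680). None of these 5 passed the test at 100 µg/ml, with differences from -0.36 to -0.52 on the log2 scale. They were chosen for their likeness to Apoe in the same 9 libraries. Differences and test outcomes near those of Apoe thus follow from the choice and are a description only.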

How the data were processed

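RNA of BV2 cells was sequenced in 9 libraries, grouped by the treatment that their labels give (control, 10 and 100 µg/ml, 3 each). The labels name a TruSeq stranded total RNA kit, and mRNA was enriched on oligo(dT) beads. After quality filtering, the authors used TopHat for alignment and Cufflinks 2.1.1 for the FPKM values they deposited, against Ensembl release 77 (GRCm38), with fragment bias and multi-read corrections. Whether counting used strand is not given in the sources used here. These corrections and the share taken by other genes can move an FPKM value, and depth is not stored in it.

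Genes whose mean reached 1 FPKM were tested on log2(FPKM + 1) by limma 3.58.1 (R 4.3.3) in a joint fit of the 3 groups, using eBayes with a trend and adjusting p by Benjamini-Hochberg. Python 3.11.15 with pandas 2.3.3, numpy 2.4.6 and matplotlib 3.10.9 made tables and plots. The procedure was tested on simulated data. All columns of values were used. Of 180 list entries, 178 matched (not Irf8 or Tubb3), and Adgre1 carries an older symbol in the table. Some genes are in more than 1 list.

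The 10 genes and the lists were chosen with earlier results of these data known, which limits what they support. Named are all 10 genes, list genes passing the test, otherwise the most abundant of a list in part, and marker genes. A few list genes are not reported here. Plin2 was named after their values were seen. Alternatives were a pseudocount of 0.1, no filter or a filter at 5 FPKM, quantile and median-of-ratios scaling, a replicate block, eBayes without trend, only the 6 libraries compared, leaving out each library and, chosen after seeing the data, a loess correction (span 0.5) for GC content and transcript length from GENCODE M21. Cuffdiff was not repeated. Promoters are from RefSeq (GRCm38.p6).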

Additional observations from a re-analysis of the deposited data

How the results depend on the processing

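The count of the 10 genes that passed was 0 in all comparisons under most settings. At 100 µg/ml against control it was 1 after quantile normalization (Lgals3), 4 with the GC and length correction (Apoe, Lpl, Spp1 and Lgals3) and 0 to 1 when 1 library was left out (1 without 100 µg/ml replicate 1, Apoe). At 100 against 10 µg/ml it was 1, 2 (Apoe and Lgals3) and 0 to 1 under the same settings. Of all genes, 236 passed at 100 µg/ml against control, but 106 with the replicate number as a block, 819 with the GC and length correction, 28 with only the 6 libraries compared and 28 to 530 when 1 library was left out (28 without control replicate 2, 530 without 100 µg/ml replicate 1). At 100 against 10 µg/ml, 95 passed, but 13 with the block, 329 with the correction, 7 with 6 libraries and 8 to 189 when 1 library was left out. At 10 µg/ml against control, 4 passed with no filter, 1 with 6 libraries and 0 to 2 when 1 library was left out. The cause was not tested. Deviations of same-numbered libraries had correlations of -0.088 to 0.152, and those of differently numbered libraries -0.166 to 0.143. These ranges overlap and show no pairing by number, but with 3 libraries per group they cannot settle it. The block changed no call of the 10 genes. It ended those of Abca1, Lipa and Itgb2 against control and of Selplg, Ptpn6, Abcg1, Ctsh and Lgmn between doses. Quantile normalization moved Spp1 to 0.548 and Gpnmb to 0.333 at 10 µg/ml (0.031 and 0.035 as reported) and Gpnmb to 0.187 at 100 µg/ml (0.050). Small differences changed sign. After quantile normalization this held for Lpl (0.027) and Lgals3 (0.067) at 10 µg/ml against control and for Cst7 (0.010), Spp1 (-0.145), Gpnmb (-0.146) and Itgax (0.028) at 100 against 10 µg/ml. With the GC and length correction it held for Lgals3 at 10 µg/ml (0.012) and Itgax between doses (0.019). When 1 library was left out, Cd9 at 100 µg/ml ranged from -0.089 to 0.078, and at 10 µg/ml Spp1 ranged from -0.005 to 0.057 and Lgals3 from -0.050 to 0.030. Between doses Cst7 ranged from -0.057 to 0.028, Gpnmb from -0.000 to 0.034, Tyrobp from -0.217 to 0.022 and Itgax from -0.054 to 0.012. Over all settings, 503 of 537 values of the 10 genes kept their direction and side of the threshold. Many of these equal the reported estimate by design (filters, block, no trend, 6 libraries, or leaving out a library of the third group). At 10 µg/ml against control, at most 4 of all genes passed under any setting. The count therefore says little about stability. Itgax has no value at the 5 FPKM filter. For Cst7 and Itgax the depth limits what can be seen.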

Other observations

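One marker of endothelial cells was high in a line of microglial origin. Kdr, which encodes a receptor for vascular endothelial growth factor, was between 61.25 and 74.64 FPKM in the 9 libraries, while Pecam1, Cdh5, Tek and Cldn5 were under 1 FPKM in every library and Cldn5 was listed at 0 throughout. Kdr did not pass the limma test at 100 µg/ml against control (log2 difference 0.08, SE 0.077, adjusted p = 0.599).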
